A study of Mus musculus with 8 samples.

Results

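The genes described here are 37 that supply cells with amino acids or take part in the response driven by the transcription factor ATF4. They were chosen by symbol as 10 amino acid transporters, 9 enzymes of serine synthesis and one-carbon metabolism, 7 other amino acid enzymes, 9 stress factors and 2 genes of a secreted and a surface protein. Every probe set whose annotation gave 1 symbol equal to one of these genes was taken, which gave 81 of 45037 probe sets for 36 of the 37 genes; Pycr1, the last enzyme of proline synthesis, had none. The arrays came from 32Dcl3, a line of mouse myeloid progenitors kept growing by interleukin-3 (IL-3) and driven along the granulocyte path by granulocyte colony-stimulating factor (G-CSF). One culture carried the retroviral vector pMYs-FLAG-ASXL1-MT-IG (ASXL1-MT), a mutant of the chromatin regulator ASXL1, and the other the empty vector pMYs-IG (mock). Each culture was profiled in IL-3 and at 2, 6 and 24 h of G-CSF, with 1 Affymetrix array at each point and 8 arrays in all. The labels do not give the species or the extent of the ASXL1 mutant, whether IL-3 was withdrawn, or whether each time point had a culture of its own.

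ATF4 is a transcription factor whose protein is made when the initiation factor eIF2 is phosphorylated, as happens when amino acids run short, when the endoplasmic reticulum is stressed or when haem is low. It binds, with a C/EBP partner, to a composite element in the promoters of genes for amino acid transporters, for the synthesis of serine, asparagine, proline and alanine, and for stress factors that dampen or prolong the response. Growth signals through mTORC1 also raise ATF4 in proliferating cells, and serine and one-carbon enzymes feed nucleotide synthesis in such cells.

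Values are deposited log2 expression minus the median of each probe set over the 8 arrays, so a value shows how an array stands against the others and not how abundant a transcript is. An approximate level before centring was estimated from the rounding of the values, and 12515 of 18193 genes were bright enough to test. Of the 36 genes with a probe set 33 were tested; Atf3, Cth and Vldlr were too dim. Of the 33, 25 had a level of 8 or more and 8 had a lower one. No condition had a replicate. The fit is additive in time point and vector, so the ASXL1-MT and mock arrays of a time point serve as its replicates, and p-values may reflect only the spread between arrays. Changes over time are log2 differences ± the standard error (SE) of limma over 2 arrays on each side. Differences between ASXL1-MT and mock cells are over 4 arrays on each side, with the 4 time points standing in for replicates. Their SE and p-values may thus not measure the spread between separate cultures of a vector. All p-values were adjusted over all tested genes, and a gene rose or fell here where it passed a false discovery rate (FDR) of 0.05. In whole cultures, fewer cells of a type and less RNA per cell cannot be told apart.

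The cells carried transcripts of their labelled lineage: 7 of 9 myeloid progenitor and neutrophil markers had a level of 8 or more, and so had 3 of 6 eosinophil, basophil and mast cell markers, while none of the erythroid, lymphoid or fibroblast markers had. Kit and Cd34 of the 9, and Fcer1a of the 6, were too dim to test, at levels of 3.4, 5.0 and 3.3. At 24 h 7 of the 9 were higher than in IL-3, beside 15.6% of all tested genes. The erythroid factor gene Klf1, at a level of 6.4, fell by 1.12 ± 0.12 (adjusted p = 0.00936). Of the 6 eosinophil, basophil and mast cell markers 5 were higher at 24 h, with a mean of the list of -1.24 to -0.68 in IL-3, 0.18 to 0.83 at 6 h and 1.80 to 2.44 at 24 h, and their part in the changes below was not tested. Of 3 Asxl1 probe sets, 2 bright ones were lower in ASXL1-MT cells than in mock cells at each of the 4 time points and 1 dim one was higher, so the array gave no check of the transgene. Array medians over all probe sets lay between -0.04 and 0.06.

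After 6 h in G-CSF, many of these transcripts for amino acid supply were lower than in IL-3 in both cultures, and so was Atf4 itself, at -1.54 ± 0.12 (adjusted p = 0.0105). Of the 33 tested genes 15 fell and 1 rose, while 7.98% of all tested genes were lower and 11.0% were higher. The arginine transporter gene Slc7a1 fell by 2.13 ± 0.13, a 4.36-fold difference, and the serine and alanine transporter gene Slc1a4 fell by 1.94 ± 0.11, while Ddit4, an inhibitor of mTORC1, rose by 1.20 ± 0.13. The median change was -0.53 over the 33 genes and 0.10 over all tested genes. Among genes with a level of 8 or more, 14 of 25 of these genes fell, beside 11.8% of all such genes. The number that fell was 16 with each array centred, 15 after quantile normalization, 17 with a stricter filter on dim genes and 12 with the mean of each gene's probe sets. Of all genes tested under these settings 8.8%, 9.2%, 19.2% and 5.75% were lower, so the background rose with the stricter filter too. With no filter 6 fell, where 1.46% of 18193 genes were lower. With 1 array left out fewer fell than with all 8. Without an IL-3 or a 6 h array the calls were lost in this set and in the whole table alike, with 1 array then alone on that side.

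After 24 h, 17 of the 33 genes were lower than in IL-3 and 1 was higher, while 12.7% of all tested genes were lower and 15.6% higher. The median was -0.43, and 0.09 over all tested genes. At a level of 8 or more 17 of 25 were lower, beside 19.1% of all such genes. Mthfd1 (-1.23 ± 0.08), Got1 (-1.08 ± 0.09) and Phgdh (-1.07 ± 0.10), all enzymes, had the largest falls, where transporters had led at 6 h. Under the same settings 18, 16, 19 and 12 genes were lower, beside 15.3%, 11.75%, 26.7% and 8.77% of all genes tested there. With no filter 6 were lower, beside 3.88% of all genes. With 1 array left out fewer were lower than with all 8. Without an IL-3 or a 24 h array this set lost its calls and the whole table all or nearly all of its own, with 1 array then alone on that side.

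Set directly against 6 h, 5 genes were higher at 24 h and 2 were lower, while 3.80% of all tested genes were higher and 3.38% lower. Slc1a4 (1.52 ± 0.11), Slc7a1 (1.33 ± 0.13), Atf4 (0.98 ± 0.12), Trib3 (0.82 ± 0.11) and Shmt1 (0.69 ± 0.09) were higher. Phgdh (-0.87 ± 0.10) and Mthfd1 (-0.68 ± 0.08) were lower. With any 1 array left out, 0 of 12515 genes in the table passed, and with no filter 0 of 18193 did, so none of these calls was made there. After quantile normalization 45 of 12515 genes passed, and of the genes described here 1 was higher and 0 lower.

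After 2 h no gene passed, of these or of the whole table (0% of tested genes). The lowest adjusted p among the 33 was 0.522. At an unadjusted p under 0.05, limma had 1066 genes, 3 of them described here: Ddit4 at 0.48 ± 0.13, Trib3 at 0.35 ± 0.11 and Shmt1 at -0.26 ± 0.09, singled out after their values were seen. With the stricter filter 33 genes of the table passed at 2 h, none of them described here.

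**Figure D1:**
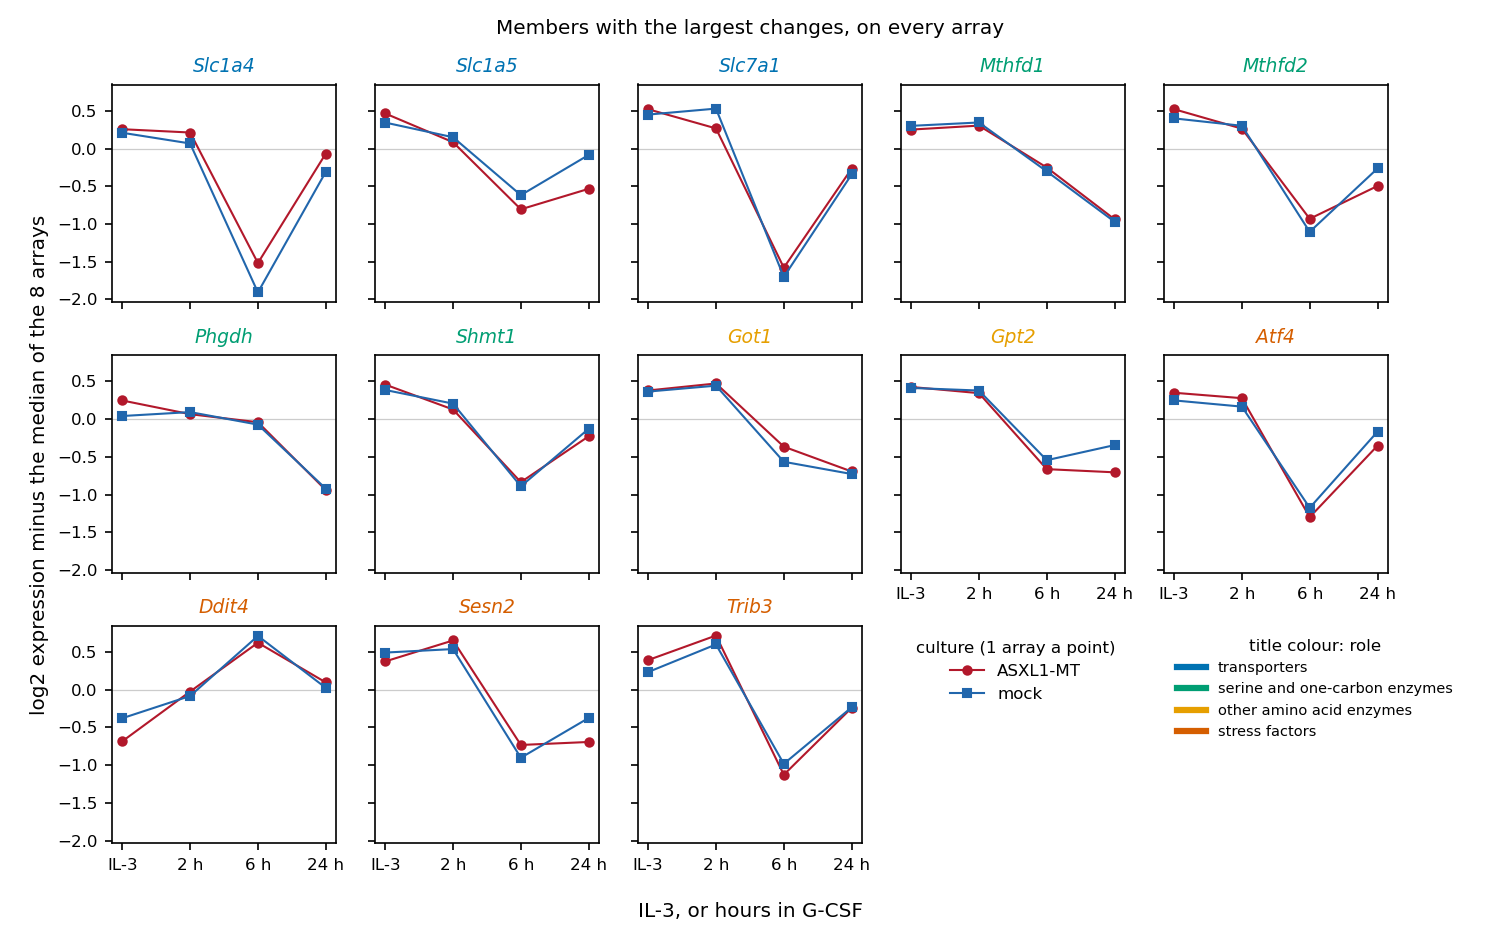
Values of the 13 genes with the largest changes past the FDR, on each of the 8 arrays: the vertical axis is log2 expression minus the median of the 8 arrays, the horizontal axis runs through IL-3 and 2, 6 and 24 h in G-CSF, red circles are ASXL1-MT and blue squares mock, and a point is 1 array. Slc7a1, Slc1a4, Atf4, Trib3 and Shmt1 have their lowest values at 6 h in both cultures, Phgdh and Mthfd1 at 24 h, and Ddit4 has its highest at 6 h.

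The promoters of some of these genes carry the composite element that ATF4 and C/EBP factors bind. The letters TGATGNAA, where N is any base, were searched on both strands (TTNCATCA on the other) of RefSeq promoter windows of the GRCm38.p6 build, which run from 250 bases before to 50 after a transcription start. Of 31 genes with a window 10 held a match, 32.3%, and 1219 of 27025 genes in all did, 4.51%; the list was drawn largely from known ATF4 targets. No window was given for Aldh1l2, Slc7a3, Slc7a5, Cth, Slc1a5 and Slc38a1. The 5 sequences below are shown because their genes span the responses: Trib3 and Slc1a4 had larger changes at 6 h than at 24 h, Got1 fell at both times, Asns fell at 24 h, and Slc7a11 passed at neither. Capitals mark the match, and each runs 5′ to 3′ on the gene's own strand, which is the minus strand of the build for all of them.
Trib3, chr2:152344011-152344310, match beginning 14 bases after the start: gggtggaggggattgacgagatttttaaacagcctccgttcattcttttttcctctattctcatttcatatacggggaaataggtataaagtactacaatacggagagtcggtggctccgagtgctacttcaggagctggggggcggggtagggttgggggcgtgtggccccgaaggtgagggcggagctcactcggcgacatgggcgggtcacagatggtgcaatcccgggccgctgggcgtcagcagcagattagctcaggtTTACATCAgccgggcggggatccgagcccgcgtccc
Slc1a4, chr11:20332664-20332963, match beginning 4 bases before the start: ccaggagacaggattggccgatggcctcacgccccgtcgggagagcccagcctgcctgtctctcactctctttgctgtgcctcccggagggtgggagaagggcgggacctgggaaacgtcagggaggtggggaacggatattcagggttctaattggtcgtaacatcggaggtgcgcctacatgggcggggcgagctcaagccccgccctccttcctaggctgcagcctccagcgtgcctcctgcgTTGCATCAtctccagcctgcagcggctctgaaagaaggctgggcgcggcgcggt
Got1, chr19:43524556-43524855, match beginning 102 bases before the start: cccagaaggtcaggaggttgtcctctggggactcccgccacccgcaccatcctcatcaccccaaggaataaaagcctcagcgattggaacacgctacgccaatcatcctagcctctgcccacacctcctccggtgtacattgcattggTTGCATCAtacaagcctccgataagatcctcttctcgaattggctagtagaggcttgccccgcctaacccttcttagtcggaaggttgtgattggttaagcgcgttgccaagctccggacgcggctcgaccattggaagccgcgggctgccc
Asns, chr6:7693160-7693459, match beginning 23 bases before the start: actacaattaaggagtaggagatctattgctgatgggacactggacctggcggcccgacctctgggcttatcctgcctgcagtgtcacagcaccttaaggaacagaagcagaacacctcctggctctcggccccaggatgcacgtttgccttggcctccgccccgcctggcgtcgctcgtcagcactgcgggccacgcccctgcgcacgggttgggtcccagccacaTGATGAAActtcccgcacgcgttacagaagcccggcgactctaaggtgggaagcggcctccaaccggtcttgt
Slc7a11, chr3:50443564-50443863, matches beginning 66 and 47 bases before the start: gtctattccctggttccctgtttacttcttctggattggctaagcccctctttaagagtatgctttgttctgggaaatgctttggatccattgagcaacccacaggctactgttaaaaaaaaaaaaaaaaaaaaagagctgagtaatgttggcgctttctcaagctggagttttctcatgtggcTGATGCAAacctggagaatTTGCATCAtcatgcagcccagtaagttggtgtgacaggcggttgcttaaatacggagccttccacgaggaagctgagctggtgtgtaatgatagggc

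The remaining windows with a match were those of Atf3, Chac1, Nupr1, Pycr1 and Vldlr. By role, a match stood in 2 of 6 transporter windows, 0 of 8 windows of serine and one-carbon enzymes, 3 of 6 of the other amino acid enzymes, 4 of 9 of the stress factors and 1 of 2 of the secreted and surface genes. Of 7 tested genes with a match 3 fell at 6 h, with a median change of -0.81. Of 21 tested genes with a window and no match 10 fell, with a median of -0.48. The windows thus held the letters in genes that fell and in genes that did not, and the absence of a match says nothing of elements elsewhere in a gene.

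**Figure D2:**
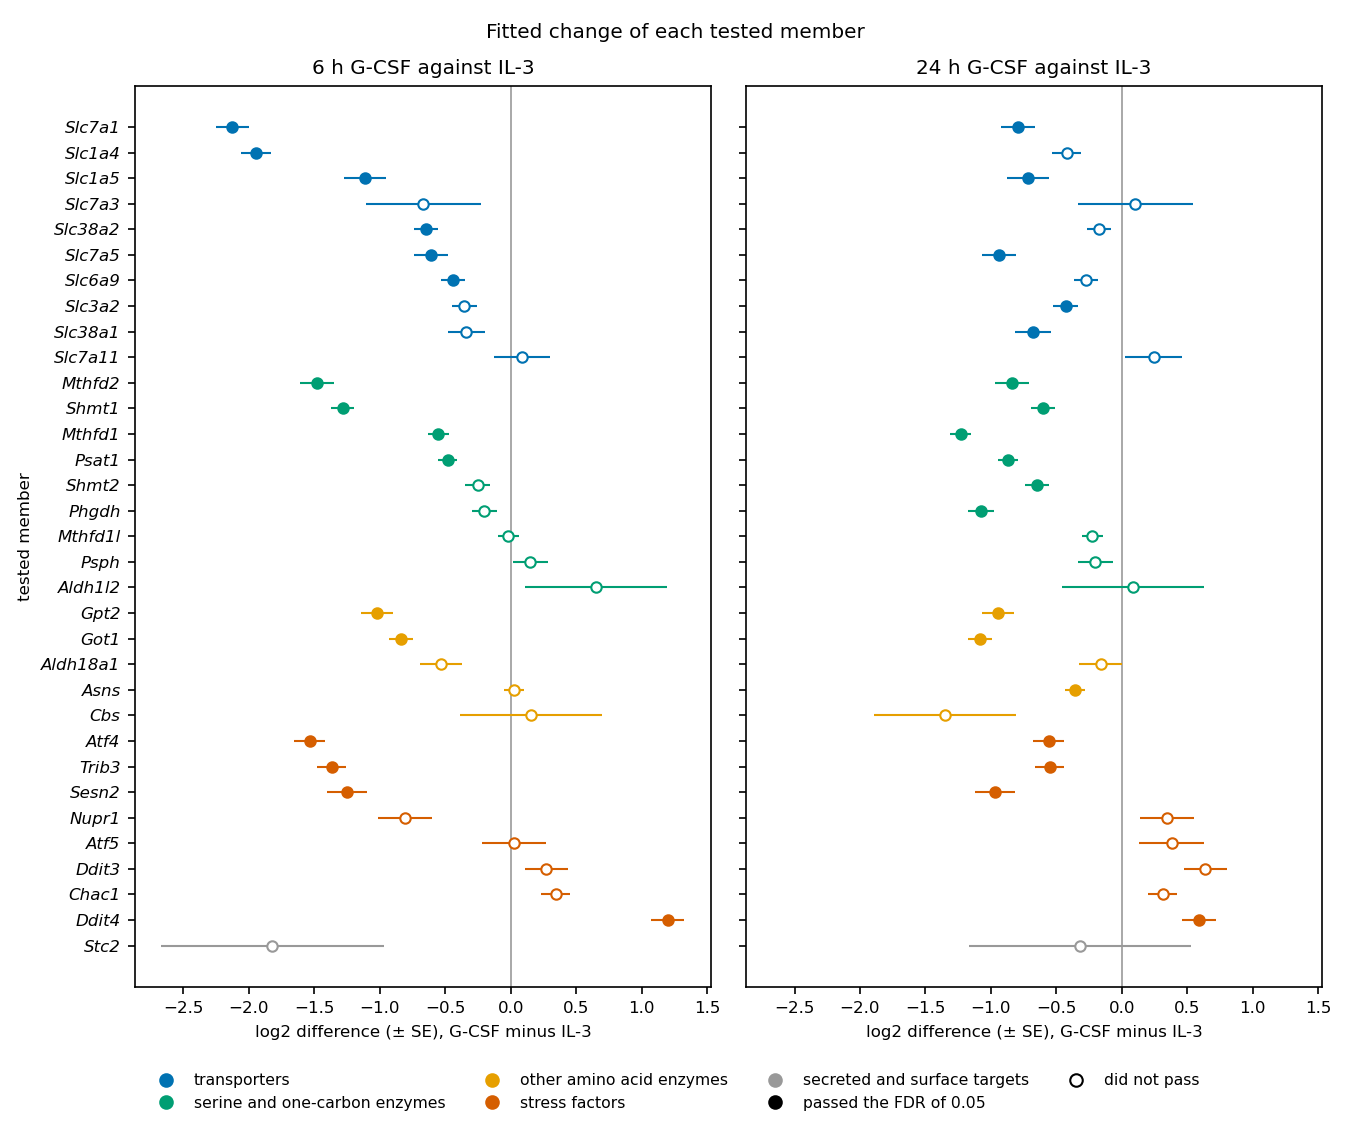
Fitted change of each of the 33 tested genes at 6 h (left) and 24 h (right) in G-CSF against IL-3, in log2 units with the SE, grouped by role; filled points passed the FDR of 0.05. At 6 h the filled points of the transporters reach -2.13 and those of the serine and one-carbon enzymes -1.48, and at 24 h they reach -0.94 and -1.23.

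Among the transporters described here, ones for cationic, neutral and large amino acids fell at 6 h. Those with the largest falls were nearer to IL-3 at 24 h. Of the 10 transporter genes 6 fell at 6 h and 5 at 24 h, none rose, and the medians were -0.63 and -0.42. Slc7a1, which carries arginine and lysine, had values of 0.52, 0.27, -1.58 and -0.27 in ASXL1-MT cells and of 0.45, 0.53, -1.70 and -0.34 in mock cells, in the order IL-3, 2, 6 and 24 h. Both 6 h arrays lay more than 1 log2 unit below the other 6, and both 24 h arrays below both IL-3 arrays, a fall of 0.79 ± 0.13 at 24 h (adjusted p = 0.0197).

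Slc1a4, which exchanges serine, alanine and other small neutral amino acids, had values of 0.26, 0.21, -1.52 and -0.07 in ASXL1-MT cells and of 0.21, 0.07, -1.91 and -0.31 in mock cells. The 6 h arrays again stood apart, at -1.94 ± 0.11 (adjusted p = 0.0105), and the 24 h change of -0.42 ± 0.11 did not pass (adjusted p = 0.0617). Its other probe sets gave -2.12 and -1.49 at 6 h, with the same sign at 24 h. All were below a level of 8, at 7.9 for the probe set used and 7.3 and 6.9 for the others. Slc1a5, the glutamine exchanger, had values of 0.47, 0.08, -0.81 and -0.53 in ASXL1-MT cells and of 0.34, 0.15, -0.62 and -0.08 in mock cells. It fell by 1.12 ± 0.16 at 6 h and by 0.71 ± 0.16 at 24 h. At 24 h the cultures were 0.45 apart, with the lower value in ASXL1-MT cells, and both lay below both IL-3 arrays.

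The large neutral amino acid transporter is a pair of chains, Slc7a5 and the heavy chain Slc3a2, which also pairs with other light chains. Slc7a5 fell by 0.61 ± 0.13 at 6 h and by 0.94 ± 0.13 at 24 h, and Slc3a2, at -0.36 ± 0.10 at 6 h (adjusted p = 0.0752), passed only at 24 h (-0.43 ± 0.10). Slc38a1, a sodium-coupled glutamine carrier, likewise fell at 24 h (-0.68 ± 0.14) and was at -0.34 ± 0.14 at 6 h (adjusted p = 0.175), while its other probe set, equally bright, gave -0.55 at 6 h and -0.23 at 24 h. Slc38a2, its close relative that responds to amino acid lack, passed at 6 h (-0.65 ± 0.09) and was at -0.18 ± 0.09 at 24 h (adjusted p = 0.236). The glycine transporter gene Slc6a9 was at -0.44 ± 0.09 at 6 h, just past the FDR (adjusted p = 0.0436), and at -0.27 ± 0.09 at 24 h. Slc7a11, the cystine and glutamate exchanger, and Slc7a3, a relative of Slc7a1, were dim (level 6.2 each) and passed no test, with 6 h changes of 0.08 ± 0.21 and -0.67 ± 0.44.

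Enzymes of serine synthesis and one-carbon metabolism also fell, with the larger changes of Shmt1 and Mthfd2 at 6 h and those of Phgdh and Mthfd1 at 24 h. Of 9 genes 4 fell at 6 h and 6 at 24 h, none rose, and the medians were -0.25 and -0.65. The serine pathway starts from a glycolytic intermediate with Phgdh, goes on with Psat1 and ends with Psph. Phgdh had values of 0.25, 0.07, -0.04 and -0.94 in ASXL1-MT cells and of 0.04, 0.09, -0.07 and -0.92 in mock cells. Its values before 24 h lay within -0.07 to 0.25 and both 24 h arrays stood apart, with changes of -0.20 ± 0.10 at 6 h (adjusted p = 0.233) and -1.07 ± 0.10 at 24 h (adjusted p = 0.00726). All 4 probe sets of Phgdh are of a type (_x_at) whose probes can match other transcripts, and they gave -1.07 to -0.73 at 24 h. Psat1 lay 0.48 ± 0.08 below IL-3 at 6 h and 0.87 ± 0.08 below it at 24 h. Its difference of 24 h from 6 h, -0.39 ± 0.08, did not pass (adjusted p = 0.0608). Its other bright probe set gave -0.67 at 6 h and -0.72 at 24 h against IL-3. Psph passed at neither time, with 0.15 ± 0.13 at 6 h and -0.20 ± 0.13 at 24 h.

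Serine is then split to glycine by Shmt1 in the cytosol and Shmt2 in mitochondria, which passes a one-carbon unit to folate. Shmt1 had values of 0.46, 0.13, -0.84 and -0.23 in ASXL1-MT cells and of 0.39, 0.21, -0.89 and -0.13 in mock cells. It was lowest at 6 h in both cultures, with changes of -1.28 ± 0.09 at 6 h (adjusted p = 0.0105) and -0.60 ± 0.09 at 24 h (adjusted p = 0.0166), and its 4 probe sets gave -1.28 to -1.15 at 6 h and -1.14 to -0.60 at 24 h. The difference of 24 h from 6 h varied more among them, at 0.69, 0.50, 0.23 and 0.06, of which the largest is that of the probe set used here. Shmt2 was at -0.25 ± 0.09 at 6 h (adjusted p = 0.149) and fell by 0.65 ± 0.09 at 24 h. One of its 4 probe sets went the other way, with 1.21 at 6 h and 0.98 at 24 h, and its value on the ASXL1-MT array in IL-3 was -2.71.

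The folate enzymes Mthfd2, in mitochondria, and Mthfd1, in the cytosol, interconvert the one-carbon units used for purines and thymidylate. Mthfd2 had values of 0.52, 0.26, -0.93 and -0.50 in ASXL1-MT cells and of 0.40, 0.30, -1.10 and -0.26 in mock cells. Mthfd1 had values of 0.25, 0.30, -0.25 and -0.94 in ASXL1-MT cells and of 0.30, 0.35, -0.30 and -0.97 in mock cells. Mthfd2 was thus lowest at 6 h, at -1.48 ± 0.13 and then -0.84 ± 0.13 against IL-3, and Mthfd1 at 24 h, at -0.55 ± 0.08 and then -1.23 ± 0.08. Mthfd1l, the mitochondrial enzyme that releases formate, did not pass (-0.02 ± 0.08 and -0.22 ± 0.08). The dim Aldh1l2, which oxidises formyl folate in mitochondria, had an SE of 0.54 and did not pass either.

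Among the other amino acid enzymes, Gpt2 and Got1 fell at both times. Of 5 tested genes 2 fell at 6 h and 3 at 24 h, with medians of -0.53 and -0.94. Gpt2, which makes alanine in mitochondria, had values of 0.43, 0.34, -0.66 and -0.70 in ASXL1-MT cells and of 0.41, 0.38, -0.54 and -0.34 in mock cells. Got1, which makes aspartate in the cytosol, had values of 0.38, 0.47, -0.37 and -0.69 in ASXL1-MT cells and of 0.37, 0.44, -0.57 and -0.73 in mock cells. For both genes all 4 arrays at 6 and 24 h lay below all 4 earlier ones, with changes of -1.02 ± 0.12 and -0.94 ± 0.12 for Gpt2 and of -0.84 ± 0.09 and -1.08 ± 0.09 for Got1. Asns, the asparagine synthetase gene often used as a readout of ATF4, was at 0.02 ± 0.08 at 6 h (adjusted p = 0.861), when Atf4 was lowest, and fell by 0.36 ± 0.08 at 24 h (adjusted p = 0.0386). Aldh18a1, the first enzyme of proline synthesis from glutamate, was at -0.53 ± 0.16 at 6 h (adjusted p = 0.0984), and Cbs, of the transsulfuration path, at -1.35 ± 0.54 at 24 h (adjusted p = 0.145). Cth, the next enzyme of that path, was not tested; its dim probe set ranged from -1.66 to 2.25.

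The stress factors were split, with Atf4, Trib3 and Sesn2 lower and Ddit4 higher at both times. Of 8 tested genes 3 fell and 1 rose at 6 h, and likewise at 24 h, and the medians were -0.39 and 0.33. Atf4 had values of 0.35, 0.28, -1.30 and -0.35 in ASXL1-MT cells and of 0.25, 0.17, -1.18 and -0.17 in mock cells. The 6 h arrays stood well below the rest, and at 24 h Atf4 was still below IL-3, at -0.56 ± 0.12 (adjusted p = 0.0342). A further bright probe set of Atf4 gave -2.05 at 6 h and -0.65 at 24 h. ATF4 is controlled largely in translation and by phosphorylation, so its transcript does not report its protein, which was not measured here.

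Trib3, a pseudokinase that ATF4 induces and that restrains it in turn, had values of 0.39, 0.72, -1.13 and -0.24 in ASXL1-MT cells and of 0.23, 0.60, -0.98 and -0.23 in mock cells. Its values were highest at 2 h and lowest at 6 h in both cultures, with changes of -1.37 ± 0.11 at 6 h (adjusted p = 0.0106) and -0.55 ± 0.11 at 24 h (adjusted p = 0.0302). Another Trib3 probe set, equally bright (level 12.2), was also lowest at 6 h in both cultures. In ASXL1-MT cells it was highest in IL-3 (0.36, and 0.32 at 2 h), and in mock cells at 2 h (0.36, and 0.04 in IL-3). Sesn2, a leucine sensor that holds back mTORC1, had values of 0.37, 0.65, -0.73 and -0.69 in ASXL1-MT cells and of 0.49, 0.54, -0.90 and -0.37 in mock cells. It fell by 1.25 ± 0.15 at 6 h and by 0.97 ± 0.15 at 24 h. With the mean of its probe sets Sesn2 did not pass, at -1.07 at 6 h (adjusted p = 0.18) and -1.51 at 24 h (adjusted p = 0.0775). The other probe set gave -0.89 at 6 h and -2.05 at 24 h, with a value of -2.90 on the ASXL1-MT array at 24 h.

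Ddit4, which encodes another brake on mTORC1, ran the other way, with values of -0.68, -0.02, 0.62 and 0.10 in ASXL1-MT cells and of -0.38, -0.08, 0.71 and 0.02 in mock cells. It was lowest in IL-3 and highest at 6 h in both cultures, with changes of 1.20 ± 0.13 at 6 h (adjusted p = 0.0143) and 0.59 ± 0.13 at 24 h (adjusted p = 0.0364). After centring of the arrays on their medians the 24 h change did not pass (0.51, adjusted p = 0.0555). Nupr1, a small chromatin-associated stress protein, was at -0.81 ± 0.21 at 6 h (adjusted p = 0.0685) and at 0.35 ± 0.21 at 24 h (adjusted p = 0.286). Ddit3, which encodes the death-linked factor CHOP, was at 0.64 ± 0.16 at 24 h (adjusted p = 0.0554). Chac1, which breaks down glutathione, and Atf5, a relative of ATF4, did not pass either, with 0.31 ± 0.11 and 0.38 ± 0.25 at 24 h. Of the secreted and surface genes, Stc2, a secreted glycoprotein, did not pass (-1.82 ± 0.85 at 6 h). Vldlr, a lipoprotein receptor, and the stress factor gene Atf3 were too dim to test, with values of -2.09 to 1.18 and of -3.21 to 0.97.

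**Figure D3:**
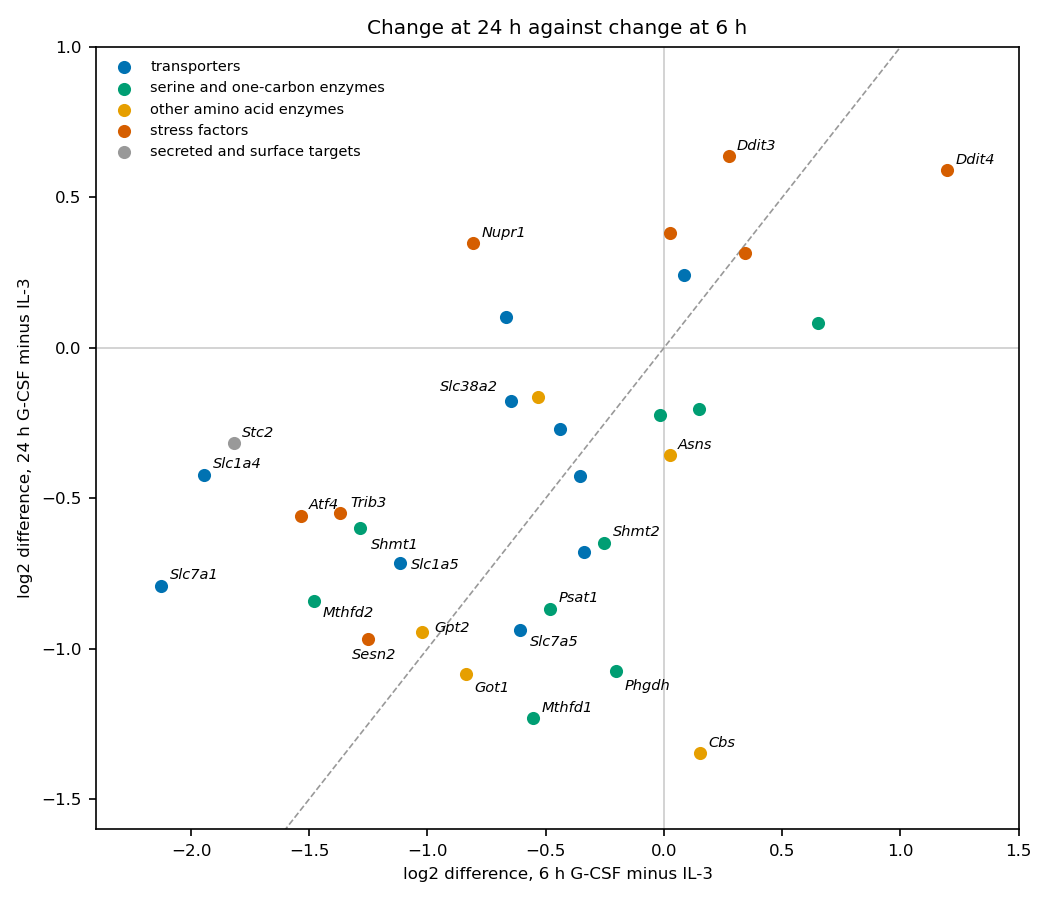
Change at 24 h (vertical) against change at 6 h (horizontal) in G-CSF, both log2 differences from the same IL-3 arrays, 1 point a tested gene, coloured by role; the dashed line marks equal change. Slc7a1, Slc1a4, Atf4, Trib3, Shmt1 and Mthfd2 lie above the line, with a larger fall at 6 h, and Phgdh, Mthfd1, Psat1, Shmt2 and Got1 below it, with a larger fall at 24 h.

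The timing differed between the roles as a description, which was not tested. In both cultures 12 of the 33 genes had their lowest value at 6 h, beside 9.95% of all tested genes, and 10 had it at 24 h, beside 16.8%. The 12 were 5 of 10 transporters, 2 of 9 serine and one-carbon enzymes, 1 of 5 other enzymes and 4 of 8 stress factors. The 10 were 2 transporters, 5 serine and one-carbon enzymes, 3 other enzymes and no stress factor. These counts rest on 1 probe set a gene, and equally bright ones can differ. Slc38a1, counted at 24 h, had another probe set that was lowest at 6 h in both cultures. Gpt2, counted at neither time, had a further one lowest at 6 h and others lowest at 24 h in both cultures. At 6 h 23 of the 33 genes lay below IL-3 in both cultures, beside 29.7% of all tested genes, and at 24 h 25 did, beside 33.3%.

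Different probe sets of a gene mostly moved alike at 6 and 24 h. Of the 52 probe sets with a level of 8 or more, 46 had a negative change at 6 h and 47 at 24 h. Of all 7603 tested genes at that level, with 1 probe set each, 3272 and 3681 had. Among 16 genes with more than 1 such probe set 14 had the same sign in all of them at 6 h and 15 at 24 h. For the change from 6 to 24 h 13 of the 16 did, for that from IL-3 to 2 h 8, and for ASXL1-MT against mock 7. The same count was not made over all genes. When every probe set of the table was tested on its own with no filter, 14 of the 81 were lower at 24 h, beside 1.95% of all 34945. Phgdh, Mthfd1, Gpt2 and Shmt1 each gave more than 1 of the 14, so these are not separate genes. None of the 81 or of the 34945 passed at 6 h, where the lowest adjusted p was 0.0596. Slc1a5 had a dim probe set with -2.70 at 6 h, beside -1.12 for the bright one.

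Neighbouring genes of the pathway passed at shares near those of the whole table. Of 56 tested genes in 6 further lists, 6 fell and 4 rose at 6 h, 10.7% and 7.14% of them, beside the 7.98% and 11.0% of all tested genes. At 24 h 10 fell and 10 rose, 17.9% each, beside 12.7% and 15.6%. Their medians were 0.04 and -0.01. Of 7 folate and glycine genes 4 fell at 6 h and 3 at 24 h, and none rose. Slc25a32, which carries folate into mitochondria, was at -2.05 ± 0.16 at 6 h and -1.72 ± 0.16 at 24 h, and Slc19a1, which carries folate into cells, at -1.27 ± 0.09 and -1.45 ± 0.09. Mthfd2l, a relative of Mthfd2, fell by 1.37 ± 0.11 at 6 h and was 0.99 ± 0.11 higher at 24 h than at 6 h. Gcsh, a protein of glycine cleavage, lay 0.77 ± 0.10 below IL-3 at 6 h and 1.26 ± 0.10 below it at 24 h.

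Of 10 tested regulators of the stress response 1 fell and 1 rose at 6 h. These were Cebpg, a dimer partner of ATF4, at -0.62 ± 0.09, and the eIF2 kinase gene Eif2ak2 at 0.36 ± 0.08. At 24 h Ppp1r15a, which brings a phosphatase to eIF2, fell (-0.95 ± 0.23), as did Gcn1 (-0.70 ± 0.08) and Impact (-0.62 ± 0.12), an activator and an inhibitor of the amino acid sensing kinase GCN2. Cebpb, a myeloid C/EBP factor, rose (1.02 ± 0.09), as did the eIF2 kinase genes Eif2ak3 (0.60 ± 0.12) and Eif2ak2 (0.55 ± 0.08). From 6 to 24 h Ppp1r15b, the constitutive relative of Ppp1r15a, was higher by 0.82 ± 0.11, Cebpg by 0.65 ± 0.09 and Cebpb by 0.62 ± 0.09.

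Among 7 glutathione and sulfur genes, Ahcy, which clears the product of methylation reactions, fell at 24 h (-1.48 ± 0.11), as did Gss (-0.88 ± 0.21), while Gclm, of the first step of glutathione synthesis, rose at 6 h (0.48 ± 0.10) and 24 h (0.68 ± 0.10). Of 10 further amino acid enzymes, Prodh, which breaks down proline, fell at 6 h (-0.51 ± 0.09) and the mitochondrial aspartate aminotransferase gene Got2 at 24 h (-0.65 ± 0.11), and Ass1, of arginine synthesis, rose at 24 h (1.15 ± 0.28). Of 9 further transporters none passed at 6 h, where their median change was 0.32 and 1 change was negative, unlike the transporters above. At 24 h 3 of the 9 rose. These were the lysosomal carrier Slc36a1 (0.94 ± 0.22), the leucine carrier Slc43a1 (0.68 ± 0.15) and the taurine carrier Slc6a6 (0.45 ± 0.10). Of 13 genes that tell mTORC1 of amino acids, the sestrin gene Sesn3 rose at 6 h (1.00 ± 0.11) and 24 h (0.83 ± 0.11), against the direction of Sesn2. Nprl2 rose at 6 h (0.69 ± 0.14), and at 24 h Fnip2 rose (1.02 ± 0.09) and Rraga fell (-0.68 ± 0.14). Cebpg, Eif2ak2, Gcn1, Impact, Eif2ak3, Gcsh and Rraga were named after their values were seen.

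Between ASXL1-MT and mock cells no gene passed, of these or of the whole table (0% of tested genes). The question of this comparison was whether mutant ASXL1 alters expression during G-CSF stimulation. Over the 4 time points the median difference was 0.01 for the 33 genes, and their lowest adjusted p was 0.72. At an unadjusted p under 0.05 limma had 844 genes, 2 of them described here: Psat1, 0.15 ± 0.05 higher in ASXL1-MT cells, and the dim Cbs, 1.07 ± 0.38 higher. An added term for the ASXL1-MT array at 24 h called no gene, with 734 genes at an unadjusted p under 0.05, none of them among the 33. A p that misses the threshold does not show that the cultures were alike.

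**Figure D4:**
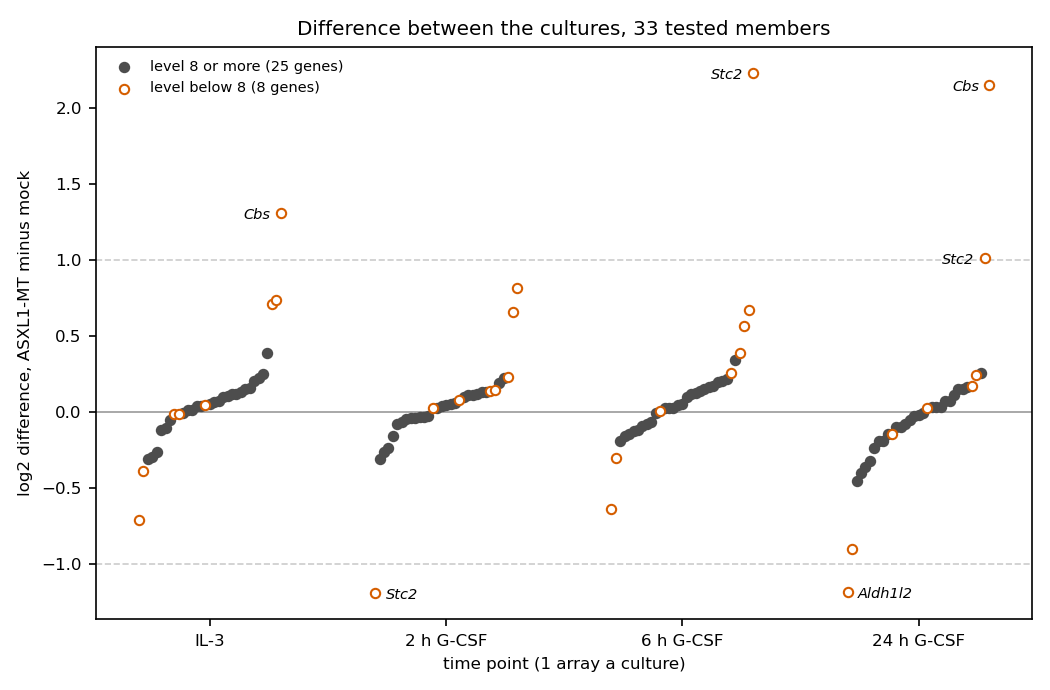
Difference between ASXL1-MT and mock cells (log2, vertical) at each time point for the 33 tested genes, ordered by size within a time point; filled points are the 25 genes with a level of 8 or more and open points the 8 dimmer ones. All filled points lie between -0.45 and 0.39, and the points beyond the dashed lines at 1 and -1 are Cbs, Stc2 and Aldh1l2.

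At single time points, with 1 array a culture and no test, the 25 bright genes differed by -0.31 to 0.39 in IL-3, by -0.31 to 0.22 at 2 h, by -0.19 to 0.35 at 6 h and by -0.45 to 0.26 at 24 h, as ASXL1-MT minus mock. The largest of these gaps in size were those of Aldh18a1 in IL-3, Ddit3 at 2 h, Nupr1 at 6 h and Slc1a5 at 24 h. A difference of 1 or more in size was reached by 1 gene in IL-3 (Cbs, 1.31), 1 at 2 h (Stc2, -1.19), 1 at 6 h (Stc2, 2.23) and 3 at 24 h (Cbs, 2.15, Stc2, 1.01 and Aldh1l2, -1.18), all dim. Among all tested genes 10.2% reached it in IL-3, 10.4% at 2 h, 10.1% at 6 h and 10.1% at 24 h. Most of those were dim too: among the 7603 with a level of 8 or more only 59, 62, 46 and 52 genes reached it. No tested gene of the set rose by 1 or more in one culture while falling by as much in the other. The median gap in size between the changes of the cultures was 0.16, 0.23 and 0.20 at 2, 6 and 24 h, beside 0.25, 0.23 and 0.24 over all tested genes.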

How the data were processed

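Total RNA of 8 samples, 1 per culture and time point, was labelled and hybridised to Affymetrix mouse arrays, with intensities captured in MAS 5.0, per the labels. RMA was used, in a version not stated, per the submitters' processing notes. The authors' deposited values were read as log2 expression centred on the median of each probe set; their base and centring, and how arrays were scaled, were not given in the sources used here. The level before centring was estimated from the rounding step of the deposited values: of 8000 simulated probe sets 97.6% fell on the right side of level 8 and 88.2% on the right side of the filter. Probe sets were named from the platform annotation (34945 with 1 symbol, 932 with several, 9160 with none). Each gene was taken from the probe set in the highest doubling range of level, then the most specific type, then the first name, and tested where its second-highest array reached the median level of the table, 6.24.

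Genes were fitted with limma 3.58.1 in R 4.3.3 (lmFit, eBayes) on time point and vector over 8 arrays, with 3 residual and 1.2 prior degrees of freedom, two-sided, with Benjamini-Hochberg adjustment over 12515 genes; the fit was tested on simulated data. The members, role groups and further lists were chosen with earlier results of these data known. Values on every array are printed for Atf4 and for genes past the FDR with a change of 1 or more; of the further lists the up to 3 largest changes past the FDR are named, with the exceptions stated. Alternatives were centred or quantile-normalized arrays, no filter or one at 8.51, the mean of a gene's probe sets, leaving out each array, the compared arrays alone and, chosen after seeing the data, every probe set on its own. No 3′ and 5′ control probe sets of RNA quality were used here.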

Additional observations from a re-analysis of the deposited data

How the results depend on the processing

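Of 13 genes (Atf4, Ddit4, Got1, Gpt2, Mthfd1, Mthfd2, Phgdh, Sesn2, Shmt1, Slc1a4, Slc1a5, Slc7a1 and Trib3) 33 results were recomputed, and none reversed. A few of the 33 had not passed in the main fit and so had no call to lose. Single probe sets of other genes did go against the chosen one; for example, Shmt2 had one with 1.21 at 6 h and 0.98 at 24 h, Ddit3 one with -0.25 at 24 h, and Stc2 a dim one with 0.43 and 1.05. With no filter on dim genes 6 genes were lower at 6 h (2 transporters, 2 serine and one-carbon enzymes) and 6 at 24 h (1 transporter, 3 serine and one-carbon enzymes, 0 stress factors), 0 were higher at 24 h, and 0 differed between 24 and 6 h in either direction; more genes are then tested. With the stricter filter, which left fewer genes to test, 2 were higher at 24 h than in IL-3, beside 29.3% of 7557 genes, and 6 were lower at 24 h than at 6 h, beside 17.6%. With the compared 4 arrays alone 0 genes passed in any comparison or role, with 2 cultures and fewer degrees of freedom. With the mean of all probe sets 3 transporters were lower at 6 h and 0 stress factors at 24 h. From 6 to 24 h 1 gene was then lower and 3 were higher, beside 0.58% and 1.28% of all tested genes. Quantile normalization left 0 lower and 1 higher from 6 to 24 h, and centring each array left 0 higher at 24 h, and the cause was not tested. The median change at 24 h was -0.61 after quantile normalization and -0.60 with the stricter filter.

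Leaving out 1 array fits its partner exactly. The counts then ran from 0 to 10 lower and 0 to 1 higher at 6 h, from 0 to 12 lower and 0 to 1 higher at 24 h, and were 0 in both directions from 6 to 24 h. By role they ran from 0 to 3 for transporters at 6 h and 0 to 3 at 24 h, from 0 to 2 and 0 to 6 for serine and one-carbon enzymes, and from 0 to 3 and 0 to 2 for stress factors. Without either IL-3 array or either array of the compared time point this set lost its calls, and the whole table all or nearly all of its own. With each of the 8 arrays left out of those 33 results, 88 of 264 stayed on the same side of the threshold and 176 lost the call. The time comparisons set arrays of the same culture against each other through the vector term. No further pairing by replicate was possible, because every group has replicate number 1 alone. The number of arrays limits the precision, and dim genes had the largest errors.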
